A study of Mus musculus with 29 samples.

Results

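C/EBPβ bound 2870 regions in mouse liver that were listed only after prednisolone and that held no peak of the glucocorticoid receptor (GR). They were found by merging the peaks of 3 C/EBPβ ChIP-seq lists that overlapped by at least 1 bp, which gave 30780 regions. A region was kept if its only peak came from the prednisolone list and if no peak of 6 GR ChIP-seq lists overlapped it by 1 bp. The rule kept 2870 of the 3136 regions listed only after prednisolone (91.5%, 95% Wilson interval 90.5 to 92.4), and the other 266 held a GR peak. Every kept region was 1 peak of 200 bp. The regions were chosen by presence in the prednisolone C/EBPβ list and absence from the other 8 ChIP-seq lists, so both are given as description and support nothing.

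C/EBPβ is a basic leucine zipper transcription factor that is abundant in hepatocytes and takes part in the acute phase response and in metabolic gene control. GR is a nuclear receptor that moves to the nucleus when it binds corticosterone or a synthetic glucocorticoid such as prednisolone. It binds DNA as a dimer at palindromic elements and is also found at sites of other factors, C/EBPβ among them. In liver, C/EBPβ is known to occupy many GR sites before hormone reaches them.

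The samples were whole livers of 12-week-old male mice back-crossed to BALB/c and kept in a cycle of 12 hours of light and 12 hours of dark. The wild-type animals (WT) carried GR+/+ and were litter-mates of the GRdim animals, which carry a dimerization-impaired receptor. Livers were taken untreated at 6 am, when the light phase begins, untreated at 6 pm, when the dark phase begins, or at 6 am after 24 hours of prednisolone from pellets under the skin (12 mg/kg). C/EBPβ was profiled in WT only, whereas GR was profiled in both genotypes, by ChIP-seq and also by ChIP-exo. In ChIP-exo, nuclease digestion stops at the bound protein and leaves a border on each strand. In whole liver, a change in which cells are present and a change in binding per cell cannot be told apart.

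The C/EBPβ lists held 21644 peaks (6 am), 26226 peaks (6 pm) and 21941 peaks (prednisolone). The WT GR lists held 5781, 14270 and 4304 peaks and the GRdim GR lists 3183, 7440 and 3208, in the same order. The 6 ChIP-exo libraries held 31.6 to 55.7 M tags (M, 1000000) and their lists 14391 to 66573 borders, with the GRdim 6 am library lowest in both. Each list is 1 pool of 2 replicates, so no value has a replicate spread and no p-value is given. Intervals are 95% intervals over regions, by Wilson for a share and by Newcombe for a difference of shares, and cover the counting of regions only. The sources used here do not say whether the ChIP-exo and ChIP-seq libraries came from the same livers.

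As comparison, 3 other sets of C/EBPβ regions without a GR peak were used, since they were filtered in the same way for GR. These were 765 regions of the 6 am list only, 2592 of the 6 pm list only and 8248 present in all 3 lists. GR peaks were absent from 85.9% of the 891 regions of the 6 am list only, from 60.9% of the 4259 of the 6 pm list only and from 49.9% of the 16537 in all 3 lists. For the prednisolone list only this was 91.5%, so the same filter kept unlike shares of the sets. The part of this in the differences in GR borders below was not tested. The 18118 C/EBPβ regions without GR in any pattern give the background below.

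The prednisolone-only regions without GR were mostly weak C/EBPβ peaks. The score that the authors gave each peak had a median of 2.51 over these regions, with quartiles of 2.19 and 3.05, against 3.63 over the whole prednisolone list. The lowest score was 2.01, which is also the lowest in that list, and 161 of the regions had it. A score below 2.5 was held by 1431 of the 2870, a score of 4 or more by 229 (7.98%), and a score of 7 or more by 13. In the whole list, 43.8% of peaks scored 4 or more. When the list was split by score into 10 equal bins, 7 of 2195 peaks (0.319%) in the highest bin and 826 of 2194 (37.6%) in the lowest were prednisolone-only regions without GR. A list with a lowest score leaves out weaker binding, so absence from the untreated lists does not show absence of binding. The 266 prednisolone-only regions with a GR peak had a median score of 3.05. Low scores were also found in the other single-list sets: regions without GR had a median of 2.25 in the 6 am list only and of 2.30 in the 6 pm list only, each by its own list's score. A score of 3 or more was held by 26.7% of prednisolone-only regions, 6.67% of those of the 6 am list only and 8.14% of those of the 6 pm list only, set side by side without a test.

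**Figure D1:**
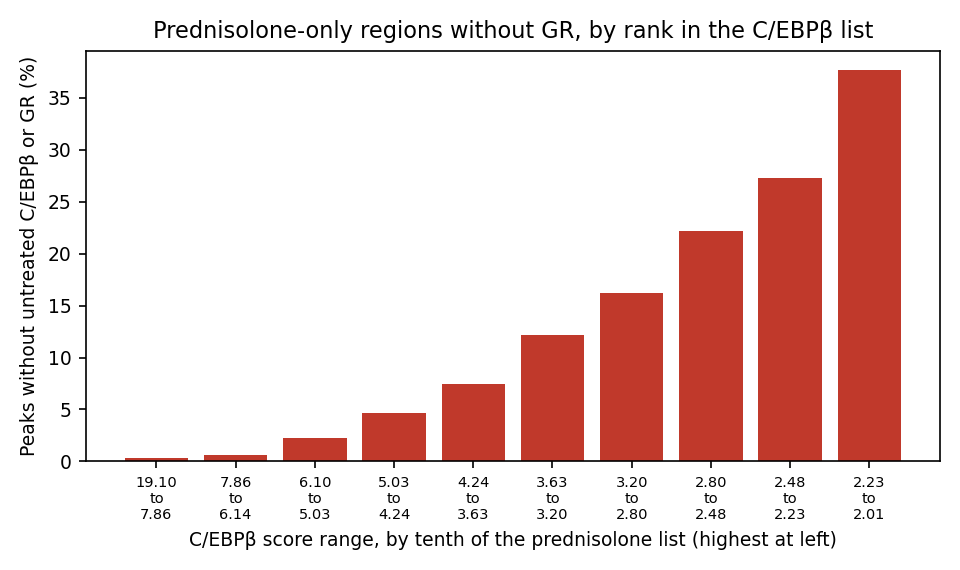
Share of C/EBPβ prednisolone-list peaks (y axis, percent) that were listed only after prednisolone and lacked a GR peak, for each of 10 equal bins of the list by score (x axis, score range in the authors' unit, highest at left). The bars rise from 0.319% in the highest bin to 37.6% in the lowest.

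The upper end of the list still held strong peaks. The highest score, 10.95, belonged to chr3:137769979-137770178 (mm9, as are all positions), which was peak 542 of 21941. It held no GR border in any of the 6 ChIP-exo libraries, and its nearest GR peak of any list was 24.3 kb away. The second, chr11:28243587-28243786, scored 10.48 and held 3 WT prednisolone borders with 44 tags in all, with its nearest GR peak 79.4 kb away and no border in the other 5 libraries. The region at chr1:37403189-37403388 scored 9.41, and an untreated C/EBPβ peak with a score of 7.50 had its centre 994 bp away, so here a strong peak stood beside an existing one. At chr4:100977835-100978034 the score was 8.44 with no border, and at chr1:84299482-84299681 it was 8.29 with 1 WT prednisolone border of 9 tags. The next regions were chr13:46983450-46983649 (score 7.97), chr2:127859342-127859541 (score 7.90), chr4:138651742-138651941 (score 7.83), chr12:100318140-100318339 (score 7.61) and chr10:86410425-86410624 (score 7.40). The region on chromosome 2 is the only one of the 10 with a border in GRdim, where the prednisolone library gave 22 tags beside 45 in WT. None of the 10 highest-scoring regions held a border in an untreated library of either genotype, and 6 of them held one in the WT prednisolone library.

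GR ChIP-exo borders in these regions were rare before treatment and more frequent after prednisolone in WT. A border lay inside 52 of the 2870 regions in the WT 6 am library (1.81%, 1.38 to 2.37), inside 45 in the WT 6 pm library (1.57%) and inside 237 in the WT prednisolone library (8.26%, 7.31 to 9.32). Over all 18118 C/EBPβ regions without a GR peak, the shares were 9.37%, 8.48% and 9.25% in the same libraries. The prednisolone-only regions were therefore far under the background in both untreated WT libraries and slightly under it after prednisolone. In GRdim, a border lay inside 9 regions at 6 am (0.314%), 34 at 6 pm (1.18%) and 100 after prednisolone (3.48%), beside background shares of 1.78%, 4.55% and 6.67%. All 6 shares lay below their background. By the rule these regions lack an untreated C/EBPβ peak, whereas every other region of the background has one. The part of this choice in the low untreated shares was not tested.

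Within the same 2870 regions, the WT share rose by 6.45 percentage points from 6 am to prednisolone (5.40 to 7.49). A border was present after prednisolone alone in 216 regions, at 6 am alone in 31 and in both in 21. In regions of all 3 lists these counts were 726, 599 and 246. They were 22, 93 and 12 for the 6 am list only, and 89, 249 and 64 for the 6 pm list only. Regions with a border in both libraries were thus the fewest in every set. Against 6 pm the rise in prednisolone-only regions was 6.69 points (5.64 to 7.74). Regions of the 6 am list only changed by -9.28 points over the same libraries (-12.0 to -6.61), those of the 6 pm list only by -6.17 and those in all 3 lists by 1.54 (0.675 to 2.40). The change in prednisolone-only regions exceeded that in regions of all 3 lists by 4.91 points (3.55 to 6.26). From 6 am to prednisolone, WT GR borders thus became more frequent in regions of the prednisolone list only and less frequent in regions of the 6 am list only.

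In GRdim the comparison with the other sets depended on which untreated library was used. From 6 am to prednisolone, the share in prednisolone-only regions rose by 3.17 points (2.51 to 3.83), that in regions of the 6 am list only by 2.09, that in regions of the 6 pm list only by 4.17 and that in regions of all 3 lists by 5.89 (5.27 to 6.51). The change in prednisolone-only regions was 2.72 points below that of the regions in all 3 lists (interval of the difference -3.63 to -1.81). From 6 pm to prednisolone, the change was 2.30 points in prednisolone-only regions (1.61 to 2.98), 1.05 in regions of the 6 am list only, 0.887 in those of the 6 pm list only and 2.41 in those of all 3 lists. The difference from regions of all 3 lists was then -0.113 points (-1.07 to 0.848), and that from regions of the 6 pm list only 1.41 points (0.109 to 2.72). In WT the difference from regions of all 3 lists was 4.81 points with the 6 pm library (3.44 to 6.18). The GRdim lists had 14391 borders at 6 am, 35658 at 6 pm and 35220 with prednisolone, from libraries of 31.6, 43.8 and 45.2 M tags, and the part of these in the GRdim changes was not tested. With only borders of at least 20 tags the GRdim change from 6 am was 0.105 points and its interval included 0, while the WT rise was 0.592 points and its interval did not.

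**Figure D2:**
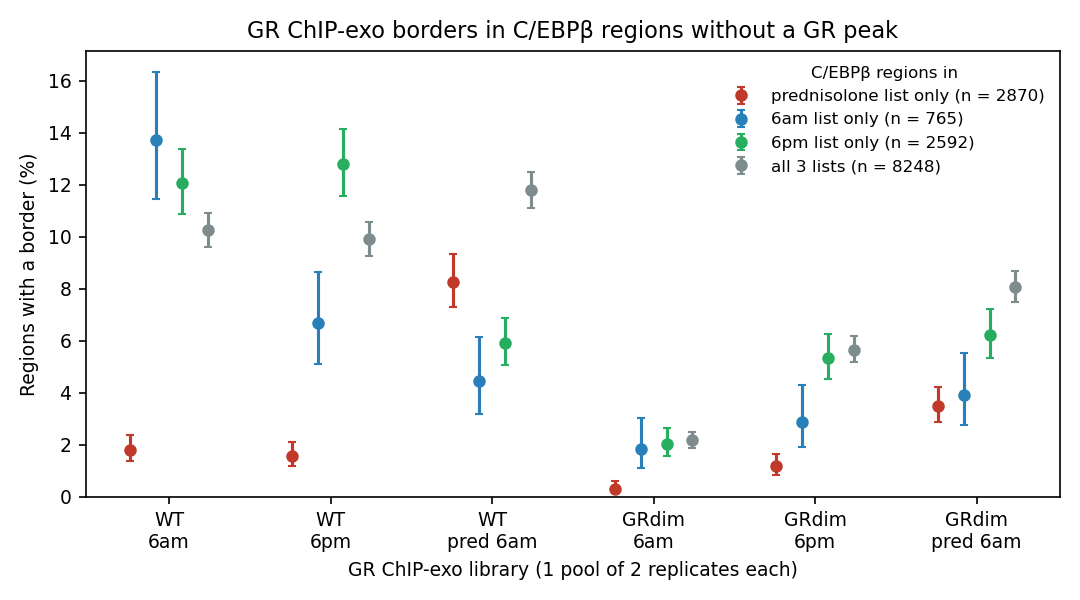
Share of C/EBPβ regions without a GR peak that held a GR ChIP-exo border (y axis, percent) in each of the 6 ChIP-exo libraries (x axis), for 4 sets of regions, with 95% Wilson intervals. Prednisolone-only regions are the lowest of the 4 sets in each of the 4 untreated libraries, and in the WT prednisolone library they lie at 8.26%, above the 4.44% and 5.90% of the regions of the 6 am and 6 pm lists only.

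In the WT prednisolone library, prednisolone-only regions exceeded regions of the 6 am list only by 3.81 points (1.86 to 5.45) and regions of the 6 pm list only by 2.36 points (0.993 to 3.71). They were 3.53 points below the regions of all 3 lists (interval -4.72 to -2.27), but that difference moved with C/EBPβ score. Among regions with prednisolone scores of 2 to 2.5, 6.08% of prednisolone-only regions (87 of 1431) and 5.87% of regions of all 3 lists held a border. At scores of 2.5 to 3 the shares were 8.04% and 6.10%, at 3 to 4 they were 9.48% and 8.56%, and at 4 or more they were 19.7% (45 of 229, 15.0 to 25.3) and 17.4%. The differences were 0.212, 1.93, 0.915 and 2.26 points, now above 0, and all 4 intervals included 0, the widest running from -2.54 to 8.01. Regions with higher C/EBPβ scores thus held a WT prednisolone border more often in both sets.

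At 6 am in WT the 2 sets differed in all 4 ranges of prednisolone score. In the WT 6 am library, the shares in prednisolone-only regions were 1.96%, 2.23%, 1.30% and 0.873% over the same 4 score ranges, against 10.7%, 9.64%, 10.7% and 10.1% in regions of all 3 lists. The differences were -8.77, -7.41, -9.37 and -9.18 points, and no interval included 0. Pooled over scores, the difference was -8.43 points (-9.23 to -7.59). By definition the regions of all 3 lists have a 6 am C/EBPβ peak and the prednisolone-only regions have none. Ranges of prednisolone score do not make the sets alike in this, and its part in the 6 am differences was not tested.

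**Figure D3:**
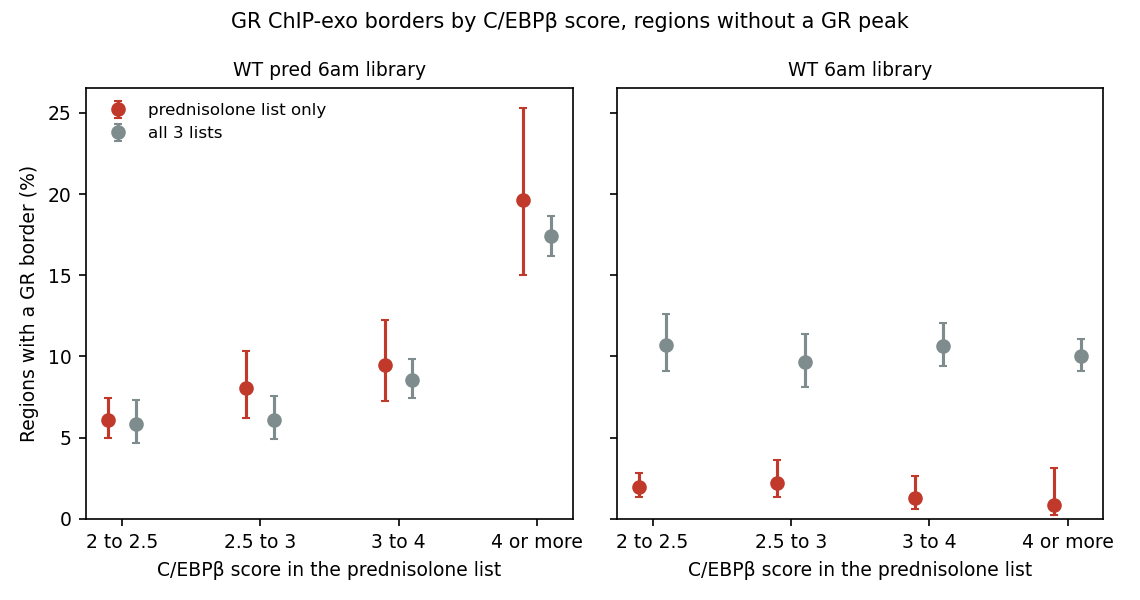
Share of regions with a GR ChIP-exo border (y axis, percent) by C/EBPβ score in the prednisolone list (x axis), for prednisolone-only regions and regions of all 3 lists without a GR peak, with 95% Wilson intervals. In the WT prednisolone library both sets lie close together and reach 19.7% and 17.4% at scores of 4 or more, whereas in the WT 6 am library prednisolone-only regions stay between 0.873% and 2.23%.

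Most of the 2870 regions held no border at all: 2511 (87.5%) were empty in all 6 libraries. Of the 359 with a border in any library, 308 held one in a prednisolone library and 107 in an untreated library. A border in a prednisolone library and in no untreated one was found in 252 regions, the reverse in 51 and both in 56. Of the 237 regions with a WT prednisolone border, 29 (12.2%) also held a GRdim prednisolone border, and these were 29 of the 100 regions with a GRdim one. These combinations over all libraries and over genotypes were not counted in the background or the other sets. They are description only and show nothing particular to these regions. The 237 regions held 355 borders, with 1 border in 167 regions and 2 in 43. Their tags summed to a median of 11 per region, from 6 to 148, or a median of 0.201 RPM (tags per 1000000 tags of the library). Most of these borders therefore rested on few tags.

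The 5 regions with the most WT prednisolone tags had modest C/EBPβ scores. At chr12:70755082-70755281 (score 2.76), WT tags numbered 147 in the 6 am library, 67 in the 6 pm library and 148 with prednisolone, and 59, 80 and 125 in GRdim, so GR borders were there in all 6 libraries although no GR ChIP-seq peak lay within 29.6 kb. It was 1 of 2 regions with borders in every library. By contrast, chr14:70930257-70930456 (score 2.66, 102 tags), chr1:78296532-78296731 (score 2.94, 100 tags) and chr2:103049638-103049837 (score 2.84, 97 tags) held borders in the WT prednisolone library alone. The chromosome 1 region was 1167 kb from the nearest GR peak, and the chromosome 2 region 979 bp. At chr15:88706470-88706669 (score 3.63), the WT libraries of 6 am, 6 pm and prednisolone gave 39, 90 and 96 tags, and a GR peak had its centre 221 bp away.

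The WT prednisolone borders were concentrated at the C/EBPβ peak centres. Their density was 0.610 per kb of sequence within 100 bp of the centre and 0.318 at 500 to 1000 bp. In the WT 6 am library the same regions had 0.124 per kb at the centre and 0.305 at 500 to 1000 bp, so the centre was poorer in borders than its surroundings. Regions of all 3 lists had 0.646 per kb at the centre at 6 am and 0.760 after prednisolone, with 0.285 and 0.185 at 500 to 1000 bp. In the WT prednisolone library, regions of the 6 am list only had 0.301 at the centre and 0.201 at 500 to 1000 bp. Those of the 6 pm list only had 0.361 and 0.171. The concentration after prednisolone was therefore not particular to prednisolone-only regions. Just outside, from 100 bp to the next 200 bp, the density in prednisolone-only regions was 0.135 per kb after prednisolone and 0.112 at 6 am. In every set the rule itself keeps GR peaks out of the region, and so out of the 100 bp on each side of the centre. It does not keep them out of the sequence beyond the region, 500 to 1000 bp included. A GR peak had its centre within 500 bp of 117 prednisolone-only regions. The part of the rule in the low 6 am density at the centre was not tested.

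**Figure D4:**
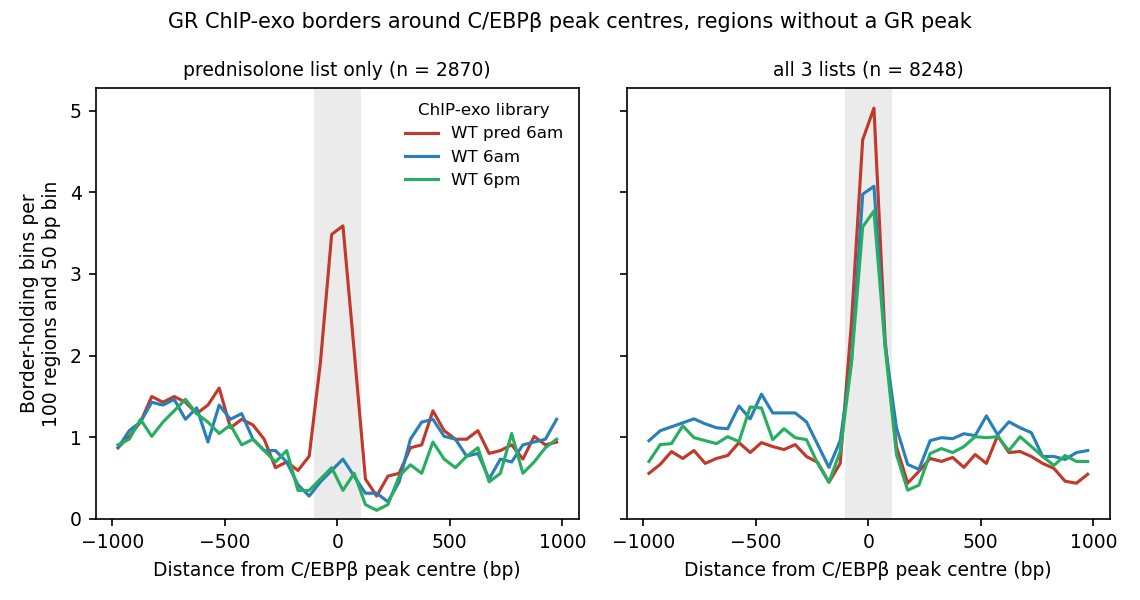
Regions with a GR ChIP-exo border in each 50 bp bin, summed over the strands and given per 100 regions (y axis), against distance from the C/EBPβ peak centre (x axis, bp), for prednisolone-only regions and regions of all 3 lists. In prednisolone-only regions the WT prednisolone line peaks at the centre, where the density within 100 bp was 0.610 borders per kb, while the WT 6 am line dips there, with 0.124 per kb. The rule keeps GR peaks from overlapping the centre in both sets.

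In 51 of the 237 regions, WT prednisolone borders lay on both strands. The distance from the plus-strand border with most tags to the minus-strand border with most tags had a median of 30 bp. In 10 of the 51 regions the minus-strand border lay before the plus-strand one, and these distances below 0 are part of the median. The distance was 29 to 31 bp in 12 of the 51 regions (23.5%, 14.0 to 36.8), against 7.78% of the 257 C/EBPβ regions without GR that held borders on both strands, these 51 included. In regions of all 3 lists it was 29 to 31 bp in 5 of 139 (3.60%, 1.55 to 8.14), and the difference was 19.9 points (9.38 to 33.3). It was 11.4 points (2.46 to 23.9) for the closest plus-to-minus pair and 16.3 points (5.32 to 30.0) for a range of 28 to 32 bp, both chosen after seeing the data. The main range of 29 to 31 bp was chosen after the spacing of borders at WT GR peaks in these libraries was known. It was thus not set independently of these libraries. None of the 7 regions of the 6 am list only and none of the 14 of the 6 pm list only had this spacing, and those differences had intervals that included 0. The 12 regions had 18 to 148 tags, with a median of 54.5, and the other 39 had 15 to 102, with a median of 24. Their C/EBPβ scores ran from 2.05 to 10.48 and their distances to a GR peak from 0.221 to 1167 kb, and 4 of the 12 also held a WT 6 am border. Within each of the 4 score ranges the difference from regions of all 3 lists stayed positive, from 12.6 to 28.6 points, with intervals that included 0.

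Prednisolone-only regions lay within 10 kb of a WT GR peak listed after prednisolone and not at 6 am more often than the comparison sets. For GR peaks of any list no such excess was found at 10 kb. The nearest GR peak of any list had its centre a median of 20.1 kb away, with quartiles of 4.02 and 75.5 kb. It was within 1 kb in 277 regions (9.65%) and within 10 kb in 1090 (38.0%, 36.2 to 39.8), against a background of 39.0% within 10 kb. The share in regions of all 3 lists was 37.8%, and the difference of 0.212 points had an interval of -1.84 to 2.28. Against regions of the 6 pm list only the difference at 10 kb was -3.73 points (-6.32 to -1.13), and against those of the 6 am list only -2.41 points (-6.34 to 1.45). At 50 kb, 68.2% of prednisolone-only regions and 65.7% of regions of all 3 lists had a GR peak, a difference of 2.55 points (0.542 to 4.52). The nearest GR peak belonged to the WT 6 pm list in 1531 regions (53.3%), to the GRdim 6 pm list in 435 and to the WT prednisolone list in 376. The WT 6 pm list is the longest of the 6. These distances use the same GR lists that the rule used to leave regions out, and the rule kept unlike shares of the sets. It kept 91.5% of regions of the prednisolone list only, 85.9% of the 6 am list only, 60.9% of the 6 pm list only and 49.9% in all 3. The part of this in the distance differences, here and below, was not tested.

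WT GR peaks were split by comparing the prednisolone and 6 am lists. Of these, 1111 were present after prednisolone and not at 6 am, called new here, and 2588 were present at 6 am and not after prednisolone, called lost. Neither group was checked against the WT 6 pm list, so a new peak can also be listed in untreated liver at 6 pm. A new GR peak lay within 10 kb of 225 prednisolone-only regions (7.84%, 6.91 to 8.88), against a background of 4.31%. That share exceeded the one in regions of all 3 lists by 3.91 points (2.88 to 5.03), in regions of the 6 am list only by 4.44 points (2.65 to 5.93) and in regions of the 6 pm list only by 5.02 points (3.85 to 6.21). A new GR peak lay within 1 kb of 42 regions (1.46%). A lost GR peak lay within 10 kb of 229 regions (7.98%, 7.04 to 9.03), against a background of 9.94%, which was 1.99 points below regions of all 3 lists (interval -3.14 to -0.765). New and lost peaks come from the same pair of lists, so the higher and the lower share are not separate evidence.

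By whole lists, a WT prednisolone GR peak lay within 10 kb of 581 regions (20.2%), against a background of 15.1%, a WT 6 am peak within 10 kb of 562 (19.6%), against 18.8%, and a WT 6 pm peak within 10 kb of 1017 (35.4%), against 37.4%. Compared with regions of all 3 lists, the difference was 6.01 points for the WT prednisolone list (4.39 to 7.69), 1.46 for the WT 6 am list (-0.189 to 3.16) and -0.888 for the WT 6 pm list (-2.91 to 1.16). A GRdim prednisolone peak lay within 10 kb of 387 regions (13.5%), against a background of 11.8%, and the difference from regions of all 3 lists was 2.65 points (1.26 to 4.10).

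**Figure D5:**
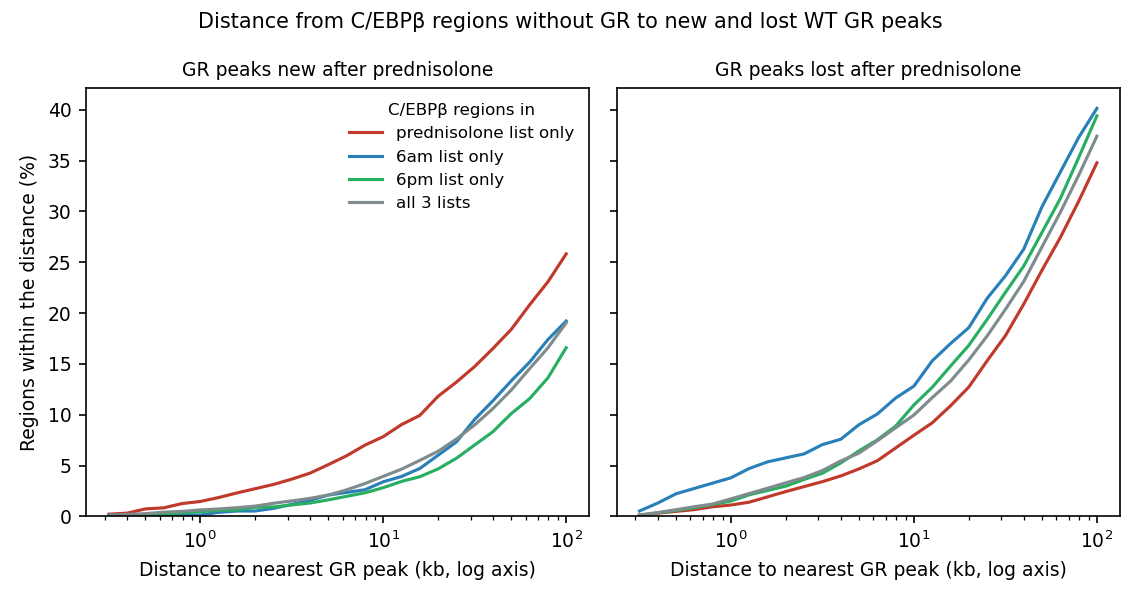
Share of C/EBPβ regions without a GR peak (y axis, percent) whose centre lay within a given distance (x axis, kb, log axis) of a new or a lost WT GR peak. For new peaks the line of the prednisolone-only regions lies above those of the other sets, with 7.84% at 10 kb against 3.93% in regions of all 3 lists, and for lost peaks it lies below them from 1 to 100 kb, the longest distance plotted, with 7.98% against 9.97%.

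The regions with a WT prednisolone border differed from the rest in position and score. A new GR peak lay within 10 kb of 41 of the 237 (17.3%, 13.0 to 22.6) and of 184 of the 2633 without a border (6.99%, 6.08 to 8.03). The nearest GR peak of any list was a median of 13.6 kb away in the former and 20.6 kb in the latter, and the median C/EBPβ scores were 2.80 and 2.48. The part of score in the difference in position was not tested. Neither this split nor the next one by distance was made in the other sets, so neither shows anything particular to these regions. By distance to the nearest GR peak, a WT prednisolone border was held by 13.4% of regions up to 1 kb away (37 of 277, 9.85 to 17.9), 8.36% at 1 to 10 kb, 7.95% at 10 to 50 kb and 6.92% beyond 50 kb (63 of 911, 5.44 to 8.75). At 6 am the shares were 4.33%, 1.48%, 1.27% and 1.87% over the same distances, so the share after prednisolone was the higher one at each distance. GR borders without a listed GR peak were therefore found far from GR peaks as well as near them.

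The nearest C/EBPβ peak of either untreated list had its centre a median of 9.28 kb away. It was within 500 bp in 179 regions (6.24%), within 1 kb in 406 (14.1%) and within 10 kb in 1475 (51.4%). Regions of the 6 am list only had a peak of the other 2 lists within 1 kb in 23.5% of cases, and regions of the 6 pm list only in 16.4%. The lists differ in length, so these shares are set side by side without a test. With each list shortened to its 21644 highest-scoring peaks, the share within 1 kb was 12.6% when measured to the shortened untreated lists and 29.7% when measured to the whole ones, whose removed peaks can then lie in the regions themselves. The nearest other peak of the prednisolone list, with these regions left out, was a median of 12.8 kb away and never closer than 0.325 kb.

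Few regions sat at the limits of the rule. The closest on the inside were chr15:78411724-78411923 (score 2.01), which touched a WT 6 pm GR peak with a gap of 0 bp, chr2:155467586-155467785 (score 2.66), with a gap of 1 bp to a WT 6 am GR peak, and chr8:9027781-9027980 (score 2.30), with a gap of 2 bp to a WT prednisolone GR peak. The closest on the outside were chr3:19101404-19101603 (score 2.48, overlap 7 bp), chr1:184168319-184168518 (score 2.05, overlap 12 bp) and chr2:4859225-4859424 (score 3.16, overlap 12 bp). In all, 14 regions lay within 50 bp of a GR peak and 11 regions were left out for an overlap of 50 bp or less, and for untreated C/EBPβ peaks both counts were 28. At the far end, chrX:130894012-130894211 (score 2.12) and chrX:131016348-131016547 (score 3.77) were 4680 and 4558 kb from the nearest GR peak, and chr3:46695017-46695216 (score 2.48) was 3992 kb away.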

How the data were processed

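Per the submitters' processing notes, the tools were Bowtie and HOMER and the build mm9, while roles, versions and peak thresholds were not stated in the sources used here. The ChIP-seq lists hold 200 bp intervals with a score per peak that the authors assigned and whose unit they do not state in these sources. It was used to describe, rank or bin peaks within a list. Scores of different lists were also set side by side, each by its own list's score and without a test. The ChIP-exo lists hold, per the file headers, the tag count of each border and its RPM value. Per the labels each list pools 2 replicates. The 2 RNA polymerase II and 12 input samples were not analysed here.

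Positions were turned to a count from 1. Distances are between centres. A region held a border if the border overlapped it. Changes between libraries within the same regions have a normal 95% interval over regions. The members, sets, spacing range and tests were chosen with earlier results of these data known. Regions named are the 10 with the highest score, the 5 with the most WT prednisolone tags, the 3 nearest to and 3 farthest from a GR peak, and those at the limit of the rule. Motifs, gene annotation and gene lists were planned and not run, since no mm9 sequence or annotation was used here. The functions were tested on simulated data and run with scipy 1.17.1, matplotlib 3.10.9, pandas 2.3.3, numpy 2.4.6 and Python 3.11.15.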

Additional observations from a re-analysis of the deposited data

Results flagged for a closer look

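In the prednisolone-only regions, the share with a GR border changed by more percentage points from 6 am to prednisolone in WT than in GRdim. The change was 6.45 points in WT and 3.17 points in GRdim, and the difference between them was 3.28 points (2.06 to 4.49, normal interval over the same 2870 regions). With the 6 pm libraries as the untreated ones the changes were 6.69 and 2.30 points, a difference of 4.39 points (3.16 to 5.62). Regions with a border numbered 52 at 6 am and 237 after prednisolone in WT, and 9 and 100 in GRdim. From 6 am, WT thus changed more in points but GRdim changed more as a ratio, from a share of 0.314%. From 6 pm, where 45 WT and 34 GRdim regions held a border, WT changed more on both scales. The WT libraries had 55.7 and 54.7 M (1000000) tags with 66573 and 49189 borders, and the GRdim libraries 31.6 and 45.2 M tags with 14391 and 35220 borders, and the part of these in the difference was not tested. In regions of all 3 lists the changes were 1.54 points in WT and 5.89 points in GRdim, and the difference between these was not tested.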

How the results depend on the processing

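Of 133 alternative values over 13 results, 86 were counted as the same. A difference or change was counted if it kept its sign and its interval still left out 0, whatever its size. A share was counted if it stayed inside the main interval, and a median score if it stayed within the main quartiles. A number of regions was counted if it stayed close to the main one. The WT rise from 6 am to prednisolone kept its direction and an interval above 0 under every alternative run, and so did the share near a new GR peak against regions of all 3 lists. The difference from regions of all 3 lists in the WT prednisolone library turned to 0.239 points with borders of at least 20 tags, 0.0917 with borders on both strands, and 0.212, 1.93, 0.915 and 2.26 in the 4 score ranges from lowest to highest, all with intervals that included 0. At scores of at least 3 it was -1.70 and its interval included 0. With at least 20 tags, the GRdim change was 0.105 points and the WT 6 am difference from regions of all 3 lists -0.111, both with intervals that included 0. The spacing difference was 23.5, 28.6, 20.7 and 12.6 points in the 4 score ranges, with intervals that included 0 and fewer regions in each. Otherwise the cause was not tested.

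The WT prednisolone border share was 1.78% for borders on both strands, 0.627% for 20 tags, 9.97% within 250 bp of the centre, 10.5% in the higher-scoring 50%, 12.5% at scores of at least 3, and 6.08%, 9.48% and 19.7% at scores of 2 to 2.5, 3 to 4 and 4 or more. The WT 6 am share was 0.348%, 0.0348% and 2.89% under the first 3 of these settings, 1.17% (at least 3), 1.30% (3 to 4) and 0.873% (4 or more). The number of regions was 767 at scores of at least 3, with a median score of 3.52, and 1435 in the higher-scoring 50%. The share near any GR peak was 27.9% within 5 kb, 54.2% within 25 kb, 40.1% in the higher-scoring 50%, 42.9% at scores of at least 3, 31.4% with no GR centre within 1 kb and 35.6% with no untreated C/EBPβ centre within 500 bp. The share within 1 kb of an untreated C/EBPβ peak was 29.7% with lists of equal length and 12.6% when measured to the shortened lists, 6.94% with no GR centre within 1 kb, 8.44% with no untreated centre within 500 bp and 16.3% at scores of at least 3. The share in groups was 14.2% with lists of equal length, 8.19% with a gap of 5 kb, 33.2% with 50 kb, 8.01% in the higher-scoring 50%, 11.3% with no GR centre within 1 kb and 7.82% at scores of at least 3.

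The closest plus-to-minus pair (spacing difference 11.4 points), a range of 28 to 32 bp (16.3 points) and the distance to the shortened lists were chosen after seeing the data. No paired analysis was possible because each list is 1 pool of replicates, and no replicate could be left out for the same reason. Motif and annotation alternatives were not run.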

Other observations

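The prednisolone-only regions were spread over the chromosomes much like C/EBPβ regions in general. Chromosome 11 held 5.85% of them and 6.47% of all C/EBPβ regions, and chromosome 16 held 4.63% and 3.97%. Most stood alone: 2506 had no other such region within 10 kb, and 364 (12.7%) fell into 172 groups, 16 of them with 3 or more regions. No group had more than 4. The group at chr5:72610608-72623070 held 4 regions with scores from 2.69 to 6.00, that at chr5:146664646-146686646 held 4 with scores from 2.33 to 3.91, and that at chr12:81233036-81241445 held 4 with scores from 2.26 to 3.52. These groups were named after their values were seen.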
